A study of Mus musculus with 20 samples.

Results

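Kidneys of mice given 7-hydroxycoumarin-β-D-glucuronide (7-HCG) at 30 mg/kg together with cisplatin were compared with kidneys of mice given cisplatin alone. The comparison took 10 of the 20 libraries of the series, 5 from each group, as named by their labels: replicates 1, 5, 6, 7 and 8 of the 30 mg/kg group and replicates 2, 3, 6, 9 and 10 of the cisplatin group. All animals were male C57BL/6J mice, an inbred laboratory strain, aged 6 to 8 weeks. The 30 mg/kg mice were dosed by mouth once a day for 5 days and received cisplatin at 10 mg/kg into the peritoneum on day 3, and the cisplatin mice received the buffer PBS by mouth and the same cisplatin injection. Kidneys were taken 72 h after cisplatin. A group at 15 mg/kg 7-HCG with cisplatin and a control group given PBS by mouth and saline into the peritoneum, also of 5 mice each, are used below as points of reference. No group received 7-HCG without cisplatin, so the compound was measured only in mice that also carried the drug.

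Cisplatin is a platinum chemotherapy drug that enters proximal tubule cells through organic cation and copper transporters, damages their DNA and mitochondria and activates p53. The proximal tubule reabsorbs most filtered solute and protein and runs on fatty acid oxidation. After injury its cells lose transporters and metabolic enzymes and start to make injury proteins such as KIM-1 and NGAL. 7-HCG is a coumarin joined to glucuronic acid. The series' title names apoptosis driven by p38 MAPK, a kinase module that responds to stress. Messenger RNA was measured here, so the phosphorylation of these kinases was not.

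Libraries of the 30 mg/kg group held 25972128 to 49602115 counts and those of the cisplatin group 10714532 to 44910747. Levels are given as CPM, counts scaled to library size, with library sizes set by TMM, a method that centres the bulk of genes. A level of 3 counts, the limit that a count of 0 allows, was at most 0.11 CPM in the 30 mg/kg libraries and 0.375 CPM in the cisplatin libraries. The 13 mRNAs encoded by the mitochondrial genome took 8.01%, 5.12%, 6.38%, 7.03% and 7.53% of counts in replicates 1, 5, 6, 7 and 8 at 30 mg/kg. In cisplatin replicates 2, 3, 6, 9 and 10 they took 27.3%, 16.6%, 22.0%, 77.7% and 70.6%. The groups did not overlap, and cisplatin 9 and 10 stood far above the other cisplatin libraries. The mean share was 6.82% ± 1.12 (SD, n = 5) against 42.8% ± 29.0, a difference of -36.01 percentage points (p = 0.00794 in a 2-sided exact permutation test, the lowest value that 5 against 5 kidneys can give). Without cisplatin 9 and 10 the difference was -15.13 points (p = 0.0179 in the same exact test, again the lowest value possible, here with 3 against 5). The share was 24.6% to 45.5% in control and 3.04% to 7.38% at 15 mg/kg, so both 7-HCG groups lay below both groups without it. The labels record no extraction or sequencing batch, so a preparation batch and the treatment cannot be told apart. This holds for the mitochondrial share and for every gene and list below. Because cisplatin 9 and 10 stand apart, list counts below are also given without them.

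**Figure D1:**
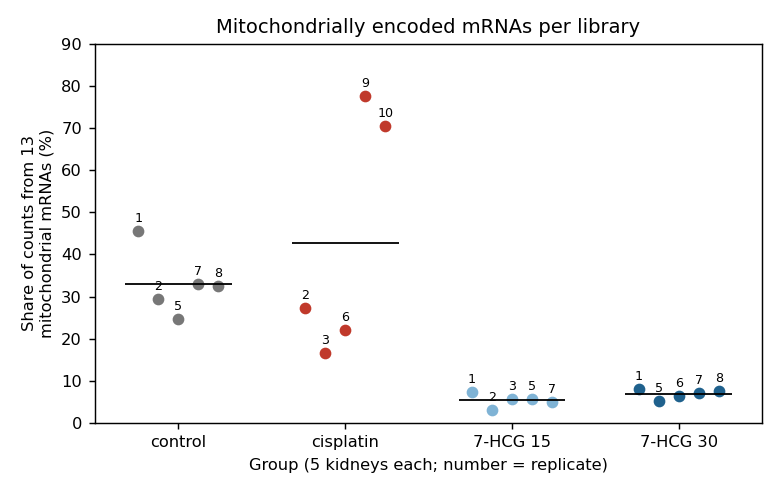
Share of all counts, in percent, that came from the 13 mitochondrially encoded mRNAs in each of the 20 kidney libraries, with 1 dot per library labelled by its replicate number and a line at the group mean. All 5 libraries at 30 mg/kg lie between 5.12% and 8.01%, and the 5 cisplatin libraries lie between 16.6% and 77.7%, with replicates 9 and 10 at the top.

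Of 14858 genes tested with edgeR's quasi-likelihood test, 2180 (14.7%) were higher and 1968 (13.2%) were lower at 30 mg/kg than in cisplatin at an adjusted p below 0.05. Among genes that differed by more than 2-fold, 741 (4.99%) were higher and 1319 (8.88%) lower. All 5 kidneys at 30 mg/kg lay above all 5 cisplatin kidneys for 1634 genes (11.0%) and below them for 1134 (7.63%). Without cisplatin 9 and 10, 15390 genes were tested, of which 1115 (7.24%) were higher and 1107 (7.19%) lower, including 997 and 947 of the genes called with all libraries. With library totals as the only scaling, 1220 genes were higher and 193 lower, so 86.3% of calls were rises in place of 52.6%. The median log2 fold change of all genes was then 0.387, against 0.0029 with TMM scaling. Falls of moderate size are to be read beside that shift. Library totals include the mitochondrial counts, and the part of these counts in the shift was not tested. The median of each gene list below is a log2 fold change and is likewise to be read beside 0.0029. The background for each list is 14.7% higher and 13.2% lower with all libraries, and 7.24% and 7.19% without cisplatin 9 and 10. Where a gene is said to rise by a value, that value is its log2 fold change ± SE from the edgeR fit. Because the tissue is bulk kidney, fewer cells of a type and less RNA per cell cannot be told apart.

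**Figure D2:**
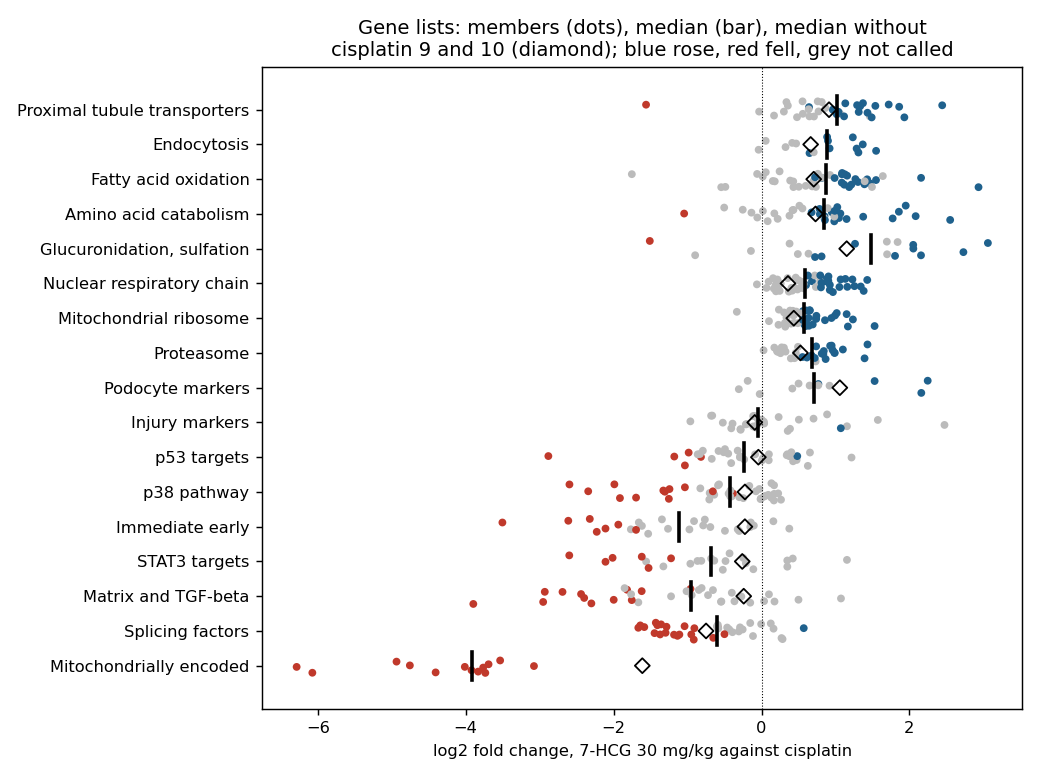
Log2 fold change of 30 mg/kg 7-HCG with cisplatin against cisplatin alone, with 1 dot per tested gene and 1 row per gene list, coloured by call (adjusted p below 0.05). Bars mark list medians with all 10 libraries and diamonds those without cisplatin 9 and 10. Proximal tubule and metabolic lists lie to the right of 0, and the medians of the immediate early and matrix lists move from -1.12 and -0.96 to -0.22 and -0.24 when the pair is left out.

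The transporters of the proximal tubule were higher at 30 mg/kg. Of 37 tested, 19 rose and 1 fell (51.4% and 2.7%, against 14.7% and 13.2% of all genes), with a median of 1.02. Without cisplatin 9 and 10, 12 rose and 1 fell, against 7.24% and 7.19% of all genes, with a median of 0.91. For 12 of them every 30 mg/kg kidney lay above every cisplatin kidney, where 11.0% of all genes did.

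Slc22a6 encodes OAT1, which takes organic anions, glucuronides among them, from blood into the proximal tubule cell (chromosome 19, 8617996 to 8628299, GRCm38). It stood at 951, 839, 710, 815 and 653 CPM in replicates 1, 5, 6, 7 and 8 at 30 mg/kg and at 230, 420, 364, 345 and 261 CPM in cisplatin 2, 3, 6, 9 and 10. The groups did not overlap, and control kidneys ranged from 161 to 713 CPM. The log2 fold change was 1.29 ± 0.30 (SE, adjusted p = 0.00461), and 1.22 without cisplatin 9 and 10. Slc3a1, the heavy subunit of the cystine and dibasic amino acid carrier (chromosome 17, 85028347 to 85064243), stood at 382, 246, 202, 234 and 147 CPM at 30 mg/kg and at 37.4, 48.4, 56.4, 25.5 and 54.8 CPM in cisplatin. Its lowest 30 mg/kg kidney was above the control range of 11.1 to 58.9 CPM as well, and the log2 fold change was 2.44 ± 0.40 (adjusted p = 0.000694). Slc34a1, the sodium phosphate cotransporter NaPi-IIa (chromosome 13, 55398187 to 55415592), stood at 6439, 2286, 1448, 2996 and 2547 CPM at 30 mg/kg and at 639, 1030, 1220, 780 and 2574 CPM in cisplatin. Here cisplatin 10 lay inside the 30 mg/kg range, and replicate 1 at 30 mg/kg lay far above the rest. The log2 fold change of Slc34a1 was 1.33 ± 0.45 (adjusted p = 0.031), and without replicate 1 at 30 mg/kg it was 0.90 and no longer called (adjusted p = 0.131).

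Slc17a3, an apical phosphate and anion transporter, rose by 1.49 ± 0.29 (adjusted p = 0.00152). Slc5a2, the glucose cotransporter SGLT2 of the early proximal tubule, was not called (1.46 ± 0.62, adjusted p = 0.0804). Its cisplatin kidneys spread from 13 CPM in replicate 2 to 158 CPM in replicate 10, and without cisplatin 9 and 10 it was called (2.54, adjusted p = 0.00729). The transporter that fell was Slc9a3, the apical sodium proton exchanger NHE3, at 49, 33.2, 36.3, 56.8 and 45 CPM at 30 mg/kg and 205, 59, 98.6, 112 and 176 CPM in cisplatin. The 30 mg/kg kidneys lay below all cisplatin kidneys and within the control range of 26.3 to 73.2 CPM (log2 fold change -1.56 ± 0.31, adjusted p = 0.00184).

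Promoter sequences are shown for 3 of these transporters because they share a short motif that is more frequent in their list than in all promoters. The motif is the hexamer GTTAAT, and it was chosen after the values were seen. Searched on both strands in RefSeq windows of 300 bases (250 before to 50 after RefSeq's own gene start, GRCm38.p6), it occurred in 6.07% of 11264 tested genes with a window, in 6 of 28 proximal tubule transporters (21.4%) and in 6 of 17 glucuronidation and sulfation genes (35.3%). The 3 windows are on the plus strand, at chr13:55399398-55399697 for Slc34a1, chr19:8617746-8618045 for Slc22a6 and chr17:85028097-85028396 for Slc3a1, and capitals mark each match or its reverse complement.
Slc34a1: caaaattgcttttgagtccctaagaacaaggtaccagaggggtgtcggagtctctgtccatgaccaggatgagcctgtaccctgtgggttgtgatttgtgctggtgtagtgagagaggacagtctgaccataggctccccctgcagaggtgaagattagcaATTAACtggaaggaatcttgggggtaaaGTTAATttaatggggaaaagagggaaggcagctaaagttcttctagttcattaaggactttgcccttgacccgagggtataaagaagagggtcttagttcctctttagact
Slc22a6: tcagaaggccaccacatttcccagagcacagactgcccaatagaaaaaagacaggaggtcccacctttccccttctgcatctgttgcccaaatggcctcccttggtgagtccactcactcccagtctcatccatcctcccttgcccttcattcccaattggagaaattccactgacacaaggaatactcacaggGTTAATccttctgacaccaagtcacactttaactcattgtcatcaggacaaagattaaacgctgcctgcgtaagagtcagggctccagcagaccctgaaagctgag
Slc3a1: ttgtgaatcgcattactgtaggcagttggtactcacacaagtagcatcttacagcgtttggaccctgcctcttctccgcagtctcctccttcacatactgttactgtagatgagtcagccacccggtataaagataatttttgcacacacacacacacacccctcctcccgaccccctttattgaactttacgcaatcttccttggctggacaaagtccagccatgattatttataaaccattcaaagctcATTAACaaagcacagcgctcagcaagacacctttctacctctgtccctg
Positions are counted from the RefSeq gene start, which for Slc34a1 lies inside the longer gene of the deposited table given above. The matches begin at -89 and -61 in Slc34a1, at -56 in Slc22a6 and just after the start in Slc3a1. In the glucuronidation and sulfation list, the genes with a match included the 1 that fell, and most of them were not called. A match describes these letters and not a bound site. Hnf4a, for a nuclear receptor that drives proximal tubule genes, was not called (0.66 ± 0.26, adjusted p = 0.0584). Of 16 transcription factors of proximal tubule identity none rose and 1 fell, Pax8 (-0.85 ± 0.25, adjusted p = 0.0167). Pax8 was not called without cisplatin 9 and 10 (-0.41, adjusted p = 0.218). In that fit none rose and 1 other factor fell.

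The apparatus that takes filtered protein back into the proximal tubule rose with the transporters. Of 15 endocytosis genes 9 rose and none fell (60% higher against 14.7% of all genes), with a median of 0.89, and 7 rose without cisplatin 9 and 10. Lrp2, which encodes the receptor megalin (chromosome 2, 69424340 to 69586065), stood at 836, 410, 332, 659 and 526 CPM at 30 mg/kg and at 172, 252.4, 269, 119 and 131 CPM in cisplatin. The groups did not overlap, while control kidneys at 163 to 609 CPM overlapped each in part, and the log2 fold change was 1.55 ± 0.35 (adjusted p = 0.00378). Lrpap1, the chaperone of megalin, rose by 1.29 ± 0.28, the folate receptor gene Folr1 by 1.31 ± 0.29 and the lysosomal protease gene Lgmn by 1.23 ± 0.29. Of 13 genes of the late, S3 part of the proximal tubule, 7 rose and none fell (53.8% against 14.7%), 3 rose without the pair of cisplatin libraries and 4 rose without cisplatin 2 or without replicate 1 at 30 mg/kg. Among them Slco1a1, an organic anion transporter, stood at 34.1 to 67.1 CPM at 30 mg/kg and 7.88 to 19.4 CPM in cisplatin (2.22 ± 0.54, adjusted p = 0.00643), and it was not called without the pair (1.96, adjusted p = 0.0542). Cyp2e1, an alcohol-oxidising cytochrome, rose by 1.93 ± 0.37 (adjusted p = 0.00131).

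Genes for the metabolism of the proximal tubule followed the same direction. Of 10 gluconeogenesis genes 5 rose and none fell (50% against 14.7% of all genes), with a median of 0.90, and 4 rose without cisplatin 9 and 10. Fbp1, fructose bisphosphatase (chromosome 13, 62864753 to 62888282), stood at 1527, 875, 732, 983 and 913 CPM at 30 mg/kg and at 162, 278, 241, 242 and 340 CPM in cisplatin. Every 30 mg/kg kidney was also above the control range of 90.2 to 422 CPM, and the log2 fold change was 1.99 ± 0.33 (adjusted p = 0.000694). Pcx, for pyruvate carboxylase, rose by 1.36 ± 0.23 and G6pc, for glucose 6 phosphatase, by 1.86 ± 0.40.

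Of 42 fatty acid oxidation genes 19 rose and none fell (45.2% against 14.7% of all genes), with a median of 0.87, and 15 rose without cisplatin 9 and 10, with a median of 0.71. Etfdh, which passes electrons from fatty acid oxidation to ubiquinone (chromosome 3, 79603788 to 79628863), stood at 111, 101, 113, 112 and 102 CPM at 30 mg/kg and at 33.7, 43.4, 40, 56.9 and 58.5 CPM in cisplatin. The 30 mg/kg kidneys lay close together, well above the cisplatin and control kidneys (32.6 to 49.5 CPM in control), and the log2 fold change was 1.21 ± 0.16 (adjusted p = 0.000246). Acadvl, the very long chain acyl-CoA dehydrogenase (chromosome 11, 70010183 to 70015408), stood at 146, 134, 124, 104 and 87.3 CPM at 30 mg/kg and at 29.2, 35.1, 32.3, 50.2 and 56.9 CPM in cisplatin, and control kidneys at 16.9 to 27.3 CPM were lower still (1.55 ± 0.26, adjusted p = 0.000694). Hadh, a later enzyme of the same spiral, rose by 1.39 ± 0.21. Cpt1a, the carnitine transferase that admits fatty acids to mitochondria, was not called although its groups did not overlap, at 277 to 335 CPM against 183 to 261 CPM (0.50 ± 0.21, adjusted p = 0.0804).

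Of 35 amino acid catabolism genes 18 rose and 1 fell (51.4% and 2.86%, against 14.7% and 13.2%), with a median of 0.85, 13 rose and 1 fell without cisplatin 9 and 10, and 11 rose without cisplatin 2. Miox, the kidney enzyme that opens inositol, stood at 2614, 951, 508, 1188 and 1081 CPM at 30 mg/kg and at 306, 499, 461, 220 and 370 CPM in cisplatin. Its lowest 30 mg/kg kidney, replicate 6, was close to the highest cisplatin kidney, and the control range was 589 to 1786 CPM (1.77 ± 0.38, adjusted p = 0.0027). Dpys, which degrades pyrimidines, rose by 2.55 ± 0.47, from 1.24 to 3.46 CPM in cisplatin to 11.7 to 24 CPM. Aldh6a1, of valine breakdown, rose by 1.07 ± 0.23.

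**Figure D3:**
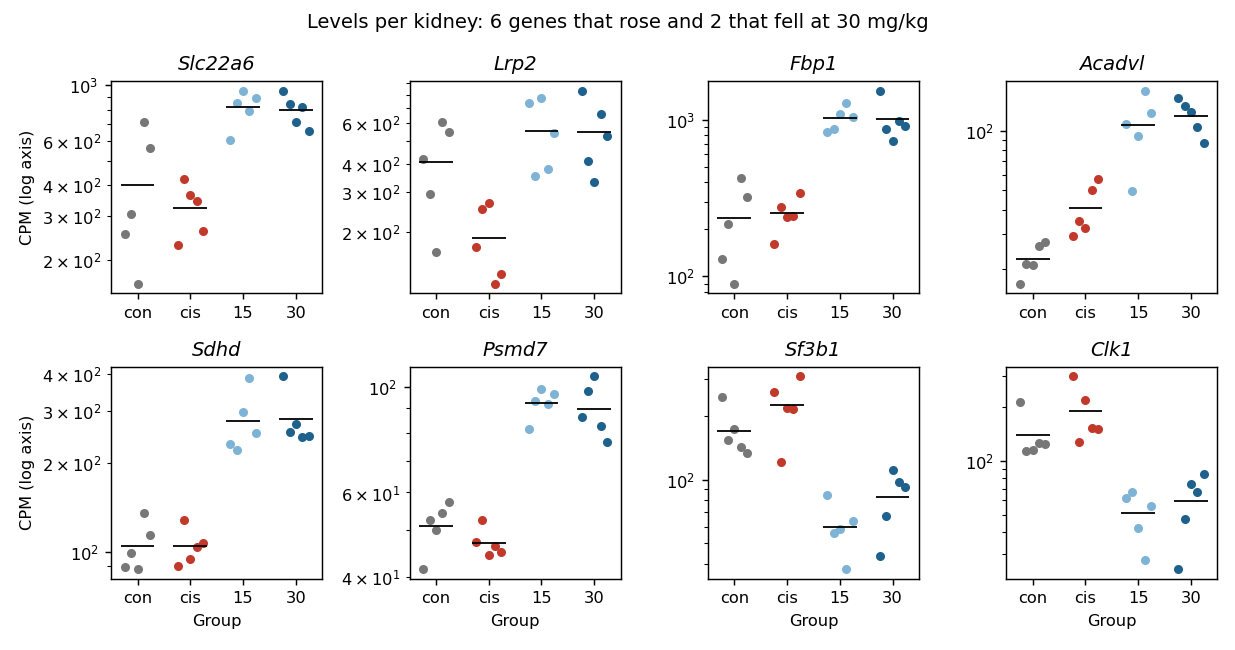
Levels of 8 genes in CPM on log axes, with 1 dot per kidney, a line at the group mean and 4 groups (con, control; cis, cisplatin; 15 and 30, mg/kg 7-HCG with cisplatin). For the first 6 genes, all 5 kidneys at 30 mg/kg lie above all 5 cisplatin kidneys, and for Sf3b1 and Clk1 all lie below them.

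Nuclear and mitochondrial genes of the respiratory chain went in opposite directions. Of 50 nuclear genes for respiratory chain and ATP synthase subunits, 22 rose and none fell (44% against 14.7% of all genes), with a median of 0.59. Without cisplatin 9 and 10, 11 rose and none fell, with a median of 0.36. Sdhd, a membrane anchor of complex II, stood at 393, 255, 272, 244 and 248 CPM at 30 mg/kg and at 89.6, 128, 95, 104 and 107 CPM in cisplatin. The control range of 87.6 to 135 CPM matched the cisplatin kidneys, and the log2 fold change was 1.43 ± 0.20 (adjusted p = 0.000249). Sdha, the catalytic subunit of the same complex, rose by 1.23 ± 0.17, Atp5b, the catalytic subunit of ATP synthase, by 1.38 ± 0.22 and Ndufv1, of complex I, by 1.16 ± 0.22.

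All 13 mitochondrially encoded mRNAs fell, with a median of -3.92, and 12 of them fell without cisplatin 9 and 10, with a median of -1.61. mt-Co1, for the catalytic subunit of cytochrome oxidase, stood at 29750, 17690, 25230, 22260 and 24590 CPM at 30 mg/kg and at 87220, 52640, 72720, 806000 and 684100 CPM in cisplatin. The 30 mg/kg kidneys lay below every cisplatin kidney and below the control range of 65820 to 177000 CPM. The log2 fold change was -3.83 ± 0.66 (adjusted p = 0.000799), and -1.58 without cisplatin 9 and 10 (adjusted p = 0.00618). mt-Nd6, the subunit gene on the other strand of the mitochondrial genome, fell by 3.08 on the log2 scale and kept its call without the pair (adjusted p = 0.0043). mt-Co3 overlapped between groups, since replicate 8 at 30 mg/kg (800 CPM) lay above cisplatin 2, 3 and 6 (677, 554 and 710 CPM), and its call ended without the pair (-0.57, adjusted p = 0.338). The fall is of the poly(A)-selected transcripts. Mitochondrial DNA and protein were not measured.

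Of 25 nuclear genes of mitochondrial upkeep 5 rose and 1 fell (20% and 4%, against 14.7% and 13.2% of all genes), and 4 rose and 1 fell without cisplatin 9 and 10. Tfam, which packages and transcribes mitochondrial DNA, stood at 30.2, 42, 51.6, 38.2 and 39.9 CPM at 30 mg/kg and at 28.1, 27.8, 26.4, 15.8 and 17.6 CPM in cisplatin (0.80 ± 0.18, adjusted p = 0.00417). Lrpprc, which stabilises mitochondrial mRNAs, rose by 0.70 ± 0.18, and Opa1, a fusion protein of the inner membrane, by 0.74 ± 0.17. Of 40 mitochondrial ribosome genes 22 rose and none fell (55% against 14.7% of all genes), with a median of 0.57, 10 rose without the pair, 13 without cisplatin 2 alone and 14 without cisplatin 9 or replicate 1 at 30 mg/kg alone. Mrps12, of the small subunit, stood at 69.2, 54, 51.3, 43.5 and 44.2 CPM at 30 mg/kg against 16.5, 21.1, 15.1, 11.3 and 26.9 CPM in cisplatin, with no overlap (1.53 ± 0.23, adjusted p = 0.000471). The mitochondrial chaperonin genes Hspd1 and Hspe1 rose by 1.18 ± 0.22 and 1.02 ± 0.23.

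Genes for protein turnover and synthesis in the cytosol were also higher. Of 31 proteasome genes 17 rose and none fell (54.8% against 14.7% of all genes), with a median of 0.68, and 14 rose without cisplatin 9 and 10. Psmd7, a lid subunit, stood at 86.2, 98, 105, 82.5 and 76.4 CPM at 30 mg/kg and at 47.3, 52.5, 44.3, 46.3 and 45 CPM in cisplatin. The 5 cisplatin kidneys, replicates 9 and 10 included, lay between 44.3 and 52.5 CPM, and the log2 fold change was 0.93 ± 0.14 (adjusted p = 0.000414). Psmb7, a catalytic subunit, rose by 1.43 ± 0.24. Of 54 cytosolic ribosome genes, many of which have processed copies that can share reads, 14 rose and none fell (25.9%), 5 rose without the pair, near 7.24% of all genes, and 7 to 21 rose with 1 kidney left out, with 7 rises without cisplatin 2 or 9. Rpl5, a protein that also binds MDM2, rose by 1.12 ± 0.21.

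Splicing factors were lower. Of 37 tested, 20 fell and 1 rose (54.1% fell against 13.2% of all genes), with a median of -0.60, and 20 fell and none rose without cisplatin 9 and 10. With library totals as the only scaling 2 fell. Sf3b1, a core subunit of the U2 particle (chromosome 1, 54985169 to 55027481), stood at 43.7, 67.6, 111, 97.7 and 92.5 CPM at 30 mg/kg and at 259, 122, 219, 216 and 308 CPM in cisplatin. Cisplatin 3 was the lowest of its group and close to replicate 6 at 30 mg/kg, and control kidneys ranged from 134 to 246 CPM (-1.45 ± 0.27, adjusted p = 0.00129). Clk1, a kinase that phosphorylates splicing factors, fell by 1.67 on the log2 scale (SE 0.31, adjusted p = 0.00128), and this call held with library totals too. Son, which keeps nuclear speckles together, and Srsf7 fell by 1.36 and 1.11 on the log2 scale.

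The direction of change moved with transcript length. The longest GENCODE vM21 transcript had a median of 2627 bases for genes that rose, 4005 for genes that fell and 3314 for genes that were not called. With genes split by length into 4 bins of equal size, from shortest to longest, the median log2 fold change was 0.245, 0.117, -0.0707 and -0.243, and without cisplatin 9 and 10 it was 0.197, 0.117, -0.0266 and -0.218. The part of this trend in the counts of short and long genes above was not tested. The median length was 3283 bases for all tested genes. Of lists that mostly rose, it was higher for the proximal tubule transporters (3529) and the endocytosis genes (4663). It was lower for the cytosolic ribosome (1124), nuclear respiratory chain (1232), proteasome (1819) and fatty acid oxidation genes (2472). Of lists that mostly fell, it was higher for the splicing factors (4112) and the matrix genes (5564), and lower for the mitochondrially encoded mRNAs (784).

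Genes that conjugate foreign compounds were higher. Of 18 tested genes for glucuronidation and sulfation 9 rose and 1 fell (50% and 5.56%, against 14.7% and 13.2%), with a median of 1.48, and 4 rose and none fell without cisplatin 9 and 10. Ugt2b38, a glucuronosyltransferase, stood at 568, 304, 194, 391 and 217 CPM at 30 mg/kg and at 43.4, 95.6, 66.3, 27.1 and 18.9 CPM in cisplatin. The groups did not overlap, and the control range of 88.9 to 546 CPM took in 4 of the 5 kidneys at 30 mg/kg and 1 cisplatin kidney (2.73 ± 0.62, adjusted p = 0.0041). Ugt1a7c stood at 90.7, 39.8, 39.5, 44.8 and 21.4 CPM at 30 mg/kg and 1.93 to 11.7 CPM in cisplatin (3.06 ± 0.61, adjusted p = 0.00209). The Ugt1a genes share their last exons, so how reads were divided among them is uncertain.

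Targets of NRF2, the regulator of the antioxidant response, were higher for 9 of 32 tested genes (28.1%) and lower for none, with a median of 0.59, 4 rose without cisplatin 9 and 10, and 5 rose without cisplatin 2 or 9 or replicate 5 or 6 at 30 mg/kg alone. Me1, for malic enzyme, stood at 303, 311, 319, 337 and 226 CPM at 30 mg/kg and at 122, 139, 140, 85.8 and 92.3 CPM in cisplatin, with control at 165 to 281 CPM, a range that held replicate 8 at 30 mg/kg and no cisplatin kidney (1.37 ± 0.21, adjusted p = 0.000527). Gsta3, a glutathione transferase, rose by 1.57 ± 0.32 and Prdx1, a peroxiredoxin, by 1.22 ± 0.25. Hmox1, for heme oxygenase, was not called (0.84 ± 0.47, adjusted p = 0.185), at 38.5, 163, 261, 82.5 and 62.7 CPM against 55.5, 83.5, 74.7, 43.7 and 81.5 CPM.

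The metallothionein genes Mt1 and Mt2, whose products bind metals, platinum among them, were not called. Mt1 stood at 176, 404, 1216, 202 and 330 CPM at 30 mg/kg and at 984, 533, 497, 1284 and 1991 CPM in cisplatin, against 76.1 to 87.4 CPM in control (-1.18 ± 0.57, adjusted p = 0.127). The zinc transporter genes Slc39a5 and Slc30a1 rose by 1.19 ± 0.27 and 1.01 ± 0.25.

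Of 22 genes that carry or detoxify cisplatin 3 rose and 1 fell (13.6% and 4.55%, at or below the shares of all genes), and 3 rose and none fell without cisplatin 9 and 10. Lrrc8d, a volume-regulated channel subunit that passes cisplatin in cultured human cells, stood at 60, 63.4, 78.1, 64.5 and 56.7 CPM at 30 mg/kg and at 21.1, 32.1, 32.3, 18.9 and 31.3 CPM in cisplatin, with no overlap (1.25 ± 0.20, adjusted p = 0.000527). Slc31a1, the copper transporter CTR1, rose by 0.85 ± 0.20 (adjusted p = 0.00458). The uptake transporter OCT2, Slc22a2 (0.76 ± 0.37, adjusted p = 0.127), and the apical exporter MATE1, Slc47a1 (0.34 ± 0.31, adjusted p = 0.438), were not called. For Slc22a2 cisplatin 9 and 10 stood at 65.2 and 72.9 CPM and the other 8 kidneys at 226 to 384 CPM.

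No marker of tubular injury had groups that did not overlap. Of 29 tested, 1 rose and none fell (3.45% and 0%, against 14.7% and 13.2% of all genes), with a median of -0.05, and none was called without cisplatin 9 and 10. Havcr1, which encodes KIM-1, the phagocytic receptor of injured proximal tubule (chromosome 11, 46735080 to 46779578), stood at 7.74, 166, 220, 73.5 and 25.7 CPM at 30 mg/kg and at 24.2, 58.1, 73, 4.49 and 3.88 CPM in cisplatin. Control kidneys lay at 0.691 to 5.80 CPM, so cisplatin 9 and 10 were inside the control range while every 30 mg/kg kidney was above it. The log2 fold change of 1.57 ± 0.93 was not called (adjusted p = 0.214), nor was the value of 0.88 without cisplatin 9 and 10 (adjusted p = 0.583).

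Lcn2, for the secreted injury protein NGAL (chromosome 2, 32384633 to 32388252), stood at 13.3, 388, 837, 156 and 178 CPM at 30 mg/kg and at 457, 413, 285, 243 and 423 CPM in cisplatin, with control at 5.04 to 44.4 CPM. Replicate 1 at 30 mg/kg lay in the control range and replicate 6 above all cisplatin kidneys, and the log2 fold change was -0.21 ± 0.91 (adjusted p = 0.882). Krt20, an injury keratin, showed the same replicates at its extremes, with 0.186 CPM in replicate 1 and 697 CPM in replicate 6 at 30 mg/kg (2.47 ± 1.46, adjusted p = 0.211). Spp1, for osteopontin, stood at 918 CPM in replicate 1 and 3735 to 13200 CPM in the other 30 mg/kg kidneys, against 1842 to 6998 CPM in cisplatin (0.39 ± 0.57, adjusted p = 0.64). Clu, for clusterin, was at 0.89 ± 0.49 (adjusted p = 0.178). The marker that rose was Itgb6, an epithelial integrin (1.07 ± 0.30, adjusted p = 0.0133), and its call ended without cisplatin 9 and 10 (0.65, adjusted p = 0.0646). Leaving out replicate 1 at 30 mg/kg gave no call for Havcr1 (1.87, adjusted p = 0.15), Lcn2 (0.10, adjusted p = 0.944) or Krt20 (2.80, adjusted p = 0.146). Without replicate 6 at 30 mg/kg, 1 marker of the list rose and 2 fell, with a median of -0.23. No marker fell in the other fits with 1 kidney left out. The standard errors are large, and the test does not show that injury was equal in the groups.

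**Figure D4:**
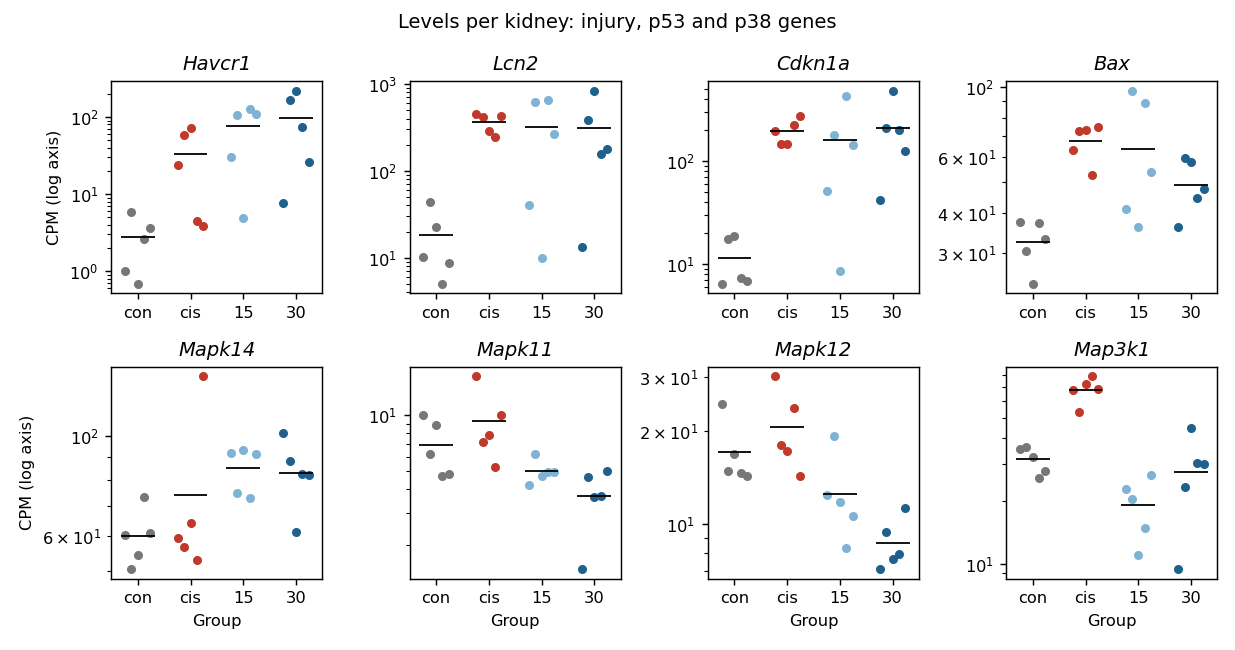
Levels of 8 genes in CPM on log axes, with 1 dot per kidney, a line at the group mean and 4 groups (con, control; cis, cisplatin; 15 and 30, mg/kg 7-HCG with cisplatin). Havcr1, Lcn2 and Cdkn1a at 30 mg/kg spread over and beyond the cisplatin kidneys, while Mapk11, Mapk12 and Map3k1 lie below all of them.

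Targets of p53, the transcription factor that DNA damage activates, were mostly not called. Of 35 tested, 1 rose and 5 fell (2.86% and 14.3%), with a median of -0.23, none rose and 1 fell without cisplatin 9 and 10, and 2 fell without cisplatin 10 alone. Cdkn1a, for the cell cycle inhibitor p21 (chromosome 17, 29090979 to 29100722), stood at 42.4, 209, 483, 201 and 126 CPM at 30 mg/kg and at 195, 146, 147, 226 and 277 CPM in cisplatin. All 10 kidneys were above the control range of 6.53 to 18.8 CPM, and the 30 mg/kg kidneys lay on both sides of the cisplatin kidneys (0.10 ± 0.69, adjusted p = 0.928). Mdm2, which degrades p53, was at -0.67 ± 0.36 (adjusted p = 0.162), with replicate 1 at 30 mg/kg the lowest kidney at 12.5 CPM. Plk3, a stress kinase, fell by 2.88 on the log2 scale (SE 0.81, adjusted p = 0.014), from 838 CPM in cisplatin 10, and the call ended without cisplatin 9 and 10 (-0.89, adjusted p = 0.339). Fas, the death receptor, fell by 0.99 on the log2 scale, and it too was not called without the pair (-0.53, adjusted p = 0.167).

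Of 31 genes that promote apoptosis 6 rose and 4 fell (19.4% and 12.9%, near the 14.7% and 13.2% of all genes), and 1 rose and 1 fell without cisplatin 9 and 10. Bax, the pore-forming effector, stood at 36.3, 59.5, 58, 44.8 and 47.5 CPM at 30 mg/kg and at 63.3, 72.8, 72.9, 52.8 and 74.4 CPM in cisplatin. The 30 mg/kg kidneys tended low but overlapped, and the change was not called (-0.45 ± 0.24, adjusted p = 0.159). Bid, which links death receptors to mitochondria, stood at 80, 63, 60.2, 49.7 and 50.7 CPM at 30 mg/kg and at 26.8, 23.7, 35.5, 20.3 and 32.8 CPM in cisplatin, with no overlap (1.13 ± 0.23, adjusted p = 0.00196). Casp4, the inflammatory caspase that senses lipopolysaccharide, stood at 2.31 to 3.08 CPM against 4.69 to 11.9 CPM (-1.52 ± 0.30, adjusted p = 0.0016). Of 13 survival genes none rose and 3 fell (23.1% against 13.2% of all genes), and 1 fell without cisplatin 9 and 10 or without any of several single kidneys. Among them Birc2, for cIAP1, fell by 0.95 on the log2 scale (SE 0.26, adjusted p = 0.0117), and Bcl2 was not called (-0.58 ± 0.24, adjusted p = 0.0717).

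Of 39 genes of the p38 pathway none rose and 12 fell (30.8% against 13.2% of all genes), with a median of -0.42, and 5 fell without cisplatin 9 and 10, with a median of -0.22. With library totals as the only scaling 3 fell. Gene lists can share members, and some of these falls are counted again among the p53 targets and the immediate early genes. Of the 4 p38 kinase genes 2 were called. Mapk14, for p38α, the form most cells depend on (chromosome 17, 28691342 to 28748404), stood at 101, 87.9, 61, 82.4 and 81.8 CPM at 30 mg/kg and at 59.2, 56.5, 64.1, 52.9 and 136 CPM in cisplatin. Cisplatin 10 was the highest of the 10 kidneys and the other cisplatin kidneys lay at the low end, and the change was not called (0.17 ± 0.22, adjusted p = 0.591) with the pair or without it (0.46, adjusted p = 0.0912).

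Mapk11, for p38β (chromosome 15, 89142487 to 89149628), stood at 1.49, 4.69, 3.62, 3.67 and 5.04 CPM at 30 mg/kg and at 16.2, 7.21, 7.84, 5.31 and 10 CPM in cisplatin. All 30 mg/kg kidneys were below all cisplatin kidneys, and the control range was 4.71 to 10.1 CPM (-1.33 ± 0.32, adjusted p = 0.00577). Mapk12, for p38γ, is its neighbour on chromosome 15 (89130584 to 89140621) and stood at 7.11, 9.41, 7.65, 7.95 and 11.2 CPM at 30 mg/kg and at 30.1, 18, 17.2, 23.8 and 14.3 CPM in cisplatin. It too did not overlap, and 4 of the 30 mg/kg kidneys lay below 10 CPM (-1.25 ± 0.24, adjusted p = 0.00141). Both were called without cisplatin 9 and 10, at -1.51 and -1.35, and neither with library totals alone, at -1.01 and -0.90, where the median gene stood at 0.387. Mapk13, for p38δ, was not called (-0.70 ± 0.38, adjusted p = 0.17), and without the pair it was at -0.02.

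Among the kinases above p38, 3 of the Map3k genes named here were called and the Map2k genes were not. Map3k1, which feeds the JNK and p38 modules, stood at 9.44, 23.3, 44.6, 30.5 and 29.9 CPM at 30 mg/kg and at 67.6, 53.3, 72.4, 79 and 68.4 CPM in cisplatin. The groups did not overlap and control kidneys, at 25.8 to 36.4 CPM, lay within the 30 mg/kg range (-1.31 ± 0.29, adjusted p = 0.00323, and -1.26 without cisplatin 9 and 10). Map3k3 fell by 1.24 on the log2 scale (SE 0.26, adjusted p = 0.00259), and Map3k6 fell by 2.60 (SE 0.65, adjusted p = 0.00795). Map3k6 was at 173 and 278 CPM in cisplatin 9 and 10, and without them it was not called (-1.28, adjusted p = 0.136). Map2k3 (-0.83 ± 0.32, adjusted p = 0.0555) and Map2k6 (0.13 ± 0.27, adjusted p = 0.739), the kinases that phosphorylate p38, were not called, nor were Map3k5, for ASK1 (-0.30 ± 0.25, adjusted p = 0.375), and the p38 substrate kinase gene Mapkapk2 (0.17 ± 0.28, adjusted p = 0.673).

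The early transcripts of stress signalling were lower mainly against cisplatin 9 and 10. Of 26 immediate early genes none rose and 7 fell (26.9% against 13.2% of all genes), with a median of -1.12. None was called without the pair, with a median of -0.22, and 3 fell without cisplatin 10 alone. Fos stood at 0.583, 3.87, 7.69, 7.52 and 4.17 CPM at 30 mg/kg and at 11.4, 6.46, 12.6, 31.2 and 50.9 CPM in cisplatin (-2.23 ± 0.73, adjusted p = 0.03, and -1.13, adjusted p = 0.303, without the pair). Nr4a1, an orphan nuclear receptor, stood at 68.5 and 60.8 CPM in cisplatin 9 and 10, 7.21 to 21.4 CPM in the other 3 and 3.87 to 10.1 CPM at 30 mg/kg (-2.32 ± 0.51, adjusted p = 0.00349, and -0.95, adjusted p = 0.0998, without the pair). Atf3 (-1.62 ± 0.65, adjusted p = 0.068) and Jun (-0.77 ± 0.50, adjusted p = 0.254) were not called. Of 15 MAP kinase phosphatases 2 rose and 1 fell (13.3% and 6.67%, at or below the 14.7% and 13.2% of all genes), and none was called without the pair. The one that fell was Dusp1, which inactivates p38 (-1.40 ± 0.43, adjusted p = 0.0207, and -0.66, adjusted p = 0.308, without the pair).

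Of 18 glucocorticoid-responsive genes none rose and 5 fell (27.8%), 2 fell without cisplatin 9 or 10 or replicate 5 at 30 mg/kg alone, and 1 rose and 1 fell without cisplatin 9 and 10. Of 19 clock genes 1 rose and 2 fell (5.26% and 10.5%), and none rose and 2 fell without the pair. Per2, a repressor of the clock, stood at 14.1, 12.1, 16.7, 19.9 and 17.7 CPM at 30 mg/kg and at 60.3, 24.5, 52.4, 31.1 and 50.5 CPM in cisplatin, with no overlap and a control range of 17.3 to 49.4 CPM (-1.44 ± 0.28, adjusted p = 0.00162, and -1.53 without the pair). Per1 fell by 1.72 on the log2 scale, and by 0.93 without the pair. The labels used here give no hour of the day at which kidneys were taken.

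Inflammatory genes fell at shares that depended on single kidneys. Of 33 genes of NF-κB inflammation none rose and 6 fell (18.2% against 13.2% of all genes), 2 fell without cisplatin 9 and 10, near the background share, and 1 fell without cisplatin 9 alone or without replicate 5 at 30 mg/kg alone. Of 23 STAT3 targets none rose and 6 fell (26.1%), and 1 fell without the pair. Nfkbiz, a nuclear partner of NF-κB, stood at 3.24, 14.6, 29.8, 14.7 and 12.1 CPM at 30 mg/kg and at 52.2, 26.6, 60.1, 26.7 and 114 CPM in cisplatin, and replicate 6 at 30 mg/kg reached the 2 lowest cisplatin kidneys (-1.91 ± 0.48, adjusted p = 0.00769, and -1.68 without the pair). Socs3, a feedback inhibitor of STAT3, fell by 2.60 on the log2 scale (SE 0.62, adjusted p = 0.00617), and was not called without the pair (-1.18, adjusted p = 0.116). Osmr, a receptor of the interleukin 6 family, fell by 2.01 on the log2 scale, and by 1.22 without the pair. Of 30 interferon-induced genes 3 rose and 2 fell (10% and 6.67%, below the shares of all genes), and 1 rose and 1 fell without the pair.

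The falls of matrix genes rested on cisplatin 9. Of 33 matrix and TGF-β genes none rose and 12 fell (36.4% against 13.2% of all genes), with a median of -0.96, and none was called without cisplatin 9 and 10. Without cisplatin 9 alone 1 fell, and without cisplatin 10 alone 12 fell. The summed level of this list was 10940 CPM in cisplatin 9, 1273 to 2318 CPM in the other cisplatin kidneys and 1244 to 1428 CPM at 30 mg/kg. Lox, which crosslinks collagen, stood at 219 CPM in cisplatin 9, 6.78 to 18.9 CPM in the other cisplatin kidneys and 2.21 to 5.83 CPM at 30 mg/kg. Pdgfra, a fibroblast receptor, stood at 366 CPM in cisplatin 9 against 14.3 to 29.6 CPM in the others and 2.01 to 10.6 CPM at 30 mg/kg (-3.79 ± 0.83, adjusted p = 0.00382, with an adjusted p of 0.0423 without the pair). Fibroblast and mural cell markers moved both ways, as 4 of 13 tested rose and 3 fell, Pdgfra among them. These shares were 30.8% and 23.1%, against 14.7% and 13.2% of all genes, and without the pair 1 rose and 1 fell. Summed fibroblast and mural cell markers were 257 to 1436 CPM in cisplatin and 235 to 584 CPM at 30 mg/kg. The part of these cells in the matrix result was not tested.

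Markers of other cell types moved as follows. Of 12 podocyte markers 4 rose and none fell (33.3% against 14.7% of all genes), and 4 rose without cisplatin 9 and 10. None was called without replicate 1 at 30 mg/kg, 1 without replicate 7 and 1 without cisplatin 2. Their summed level was 96.4 to 291 CPM at 30 mg/kg, 92.8 to 180 CPM in cisplatin and 253 to 417 CPM in control. Ptpro, a podocyte phosphatase gene, rose by 2.16 ± 0.65. Of 16 endothelial markers 1 rose and 2 fell (6.25% and 12.5%), and none rose and 1 fell without the pair. Nos3, the endothelial nitric oxide synthase, fell by 2.08 on the log2 scale (SE 0.37, adjusted p = 0.00101), and by 1.27 without the pair. Of 18 macrophage markers none rose and 3 fell (16.7%), and 1 fell without the pair. Of 14 tested T, NK and B cell markers and 9 adipose markers none was called, and the B cell gene Ms4a1 was at 0 in all 10 kidneys. Of 13 neutrophil markers only 5 passed the count filter, and 4 of these fell (13.2% of all genes fell). Without the pair 1 fell, and without cisplatin 10 alone 2 fell. Summed levels of all 13 were 3.44 to 65.7 CPM in cisplatin and 1.77 to 4.73 CPM at 30 mg/kg. S100a8 was at 3.47 and 13.5 CPM in cisplatin 9 and 10 and at most 0.695 CPM in the other 8 kidneys, and it was not called without the pair (-0.94, adjusted p = 0.359).

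In nephron segments beyond the proximal tubule, calls differed by segment and by the libraries used. Of 23 thick limb and distal genes 3 rose and 4 fell (13% and 17.4%, near the 14.7% and 13.2% of all genes). Without cisplatin 9 and 10 none rose and 4 fell, against 7.24% and 7.19% of all genes. Umod, for uromodulin of the thick limb, stood at 1651 to 2642 CPM at 30 mg/kg and at 401 and 254 CPM in cisplatin 9 and 10 against 1170 to 1652 CPM in the other 3 (1.10 ± 0.39, adjusted p = 0.0402, and 0.57, adjusted p = 0.218, without the pair). Slc12a1, the sodium cotransporter NKCC2 of the same segment, was not called (-0.80 ± 0.38, adjusted p = 0.118), and without the pair it fell by 1.31 on the log2 scale (adjusted p = 0.0102). Of 20 collecting duct genes none was called, against 14.7% higher and 13.2% lower of all genes. Without the pair none rose and 3 fell, where 7.19% of all genes fell. Kl, for klotho, rose by 1.42 ± 0.46 (adjusted p = 0.0254), and without the pair was not called (1.04, adjusted p = 0.168). Cyp27b1, which activates vitamin D, stood at 81.5 and 376 CPM in cisplatin 9 and 10, at 7.81 to 21.2 CPM in the other 3 and at 3.71 to 19.3 CPM at 30 mg/kg, and its fall of 3.02 on the log2 scale became -0.29 without the pair (adjusted p = 0.795).

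The largest separated rises included genes that were low in control kidneys as well. Apom, for the lipocalin that carries sphingosine 1 phosphate (chromosome 17, 35128997 to 35132050), stood at 138, 106, 74.4, 70.6 and 62 CPM at 30 mg/kg and at 5.79, 8.69, 8.2, 9.8 and 15.6 CPM in cisplatin. Control kidneys at 5.72 to 13.6 CPM matched the cisplatin kidneys, and the log2 fold change was 3.24 ± 0.35 (adjusted p = 4.2e-05) and 3.57 without cisplatin 9 and 10. Of 22 cholesterol synthesis genes 5 rose and none fell (22.7%), and 3 rose without the pair. Fam151a, a proximal tubule gene of little known function, stood at 6.04 to 63.9 CPM against 0.161 to 3.5 CPM (4.58 ± 0.93, adjusted p = 0.00247), and Ces1d, a carboxylesterase, rose by 2.61 ± 0.40. Cyp4b1, a fatty acid hydroxylase, stood at 2934, 1106, 894, 1162 and 772 CPM against 214, 247, 229, 82.6 and 125 CPM (2.93 ± 0.49, adjusted p = 0.000694). Carboxylesterases and cytochromes have close copies, so reads may be shared among them.

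**Figure D5:**
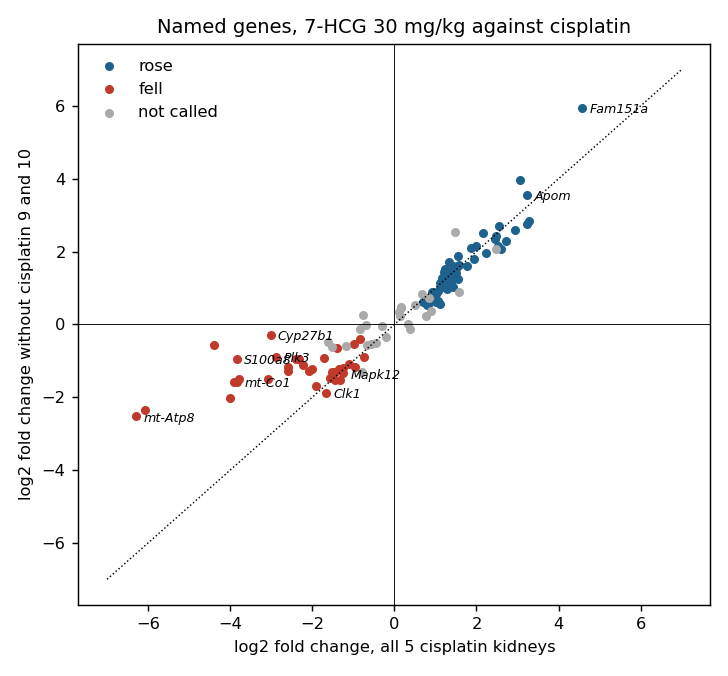
Log2 fold change of the genes named here with all 5 cisplatin kidneys (x axis) and without cisplatin 9 and 10 (y axis), with 1 dot per gene, coloured by its call with all kidneys, and a dotted line of equality. Rises such as Slc22a6 lie near the line and others such as Umod lie below it. Falls such as Cyp27b1 (-3.02 and -0.29) and mt-Atp8 (-6.29 and -2.53) lie far from the line, while others such as Mapk12 and Per2 lie near it.

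The 30 mg/kg kidneys were also set beside those given 15 mg/kg with cisplatin. No gene was called between the doses by edgeR (0 of 14858, with 1066 at an unadjusted p below 0.05 and a smallest adjusted p of 0.677). DESeq2 called 1 gene and limma voom none, and without replicate 1 at 30 mg/kg edgeR called 2. This does not show that the doses act alike, since 5 kidneys a group with this spread leave wide intervals. Lcn2 at 15 mg/kg ranged from 9.83 to 651 CPM, against 13.3 to 837 CPM at 30 mg/kg.

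The authors' deposited table gives its own fold changes for the comparison. At q below 0.05 and more than 2-fold, that table lists 822 genes as higher and 1413 as lower of 19033 with a value. Among the genes tested here that have a value there, the sign in the authors' deposited table matched that of the edgeR log2 fold change for 98.8%.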

How the data were processed

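Polyadenylated mRNA from 20 mouse kidneys was sequenced as paired 150 bp reads, per the labels' protocols. Per the submitters' processing notes, the tools were FastQC, Trimmomatic, HISAT2, StringTie and also DESeq2 (no versions stated), with the build mm10 (GRCm38). How reads were counted, on which strand and with which annotation is not given in the sources used here, so overlapping genes on opposite strands and near-identical copies cannot be told apart. The authors deposited 1 table of 25638 genes with raw counts per library, and with their own log2 fold changes and p-values and q-values. These were used only to count genes in the authors' deposited table and to compare signs.

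The test on the deposited counts was that of edgeR 4.0.16, run in R 4.3.3 (TMM scaling, filterByExpr by group, robust quasi-likelihood fit, Benjamini-Hochberg adjustment over 14858 genes). The fit held all 20 libraries, with 16 residual degrees of freedom and a common biological coefficient of variation of 0.374. The alternatives used DESeq2 1.42.0, limma 3.58.1 (voom), other scalings and filters, a replicate block, and fits without single libraries or without cisplatin 9 and 10. CPM use TMM-scaled library sizes and need not sum to the same total. Mitochondrial shares were compared by 2-sided exact permutation tests. The fitting steps were tested on simulated counts.

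Groups and replicate numbers come from the sample titles. The labels do not say more on how animals were split among cages or days, so p-values measure the spread between these kidneys. Pairs of replicates differed by a chi-square of 37.3 to 1816 per degree of freedom in cisplatin and 53.9 to 345 at 30 mg/kg, so no pair was 1 library deposited again. Limits based on 3 counts cover only counting error, since PCR reads lacking molecular identifiers are not separate molecules. The comparison, the 49 gene lists and the naming rule were chosen with earlier results of these data known. The rule named a panel of 45 genes, up to 4 called members per list by smallest p, the 12 largest rises and the 12 largest falls among genes above a mean of 2 CPM whose groups were separate, and all mitochondrially encoded mRNAs. From these 210 genes, those in the text were chosen after their values were seen. RefSeq promoter windows (GRCm38.p6) matched 158 of the 210 by symbol, and GENCODE vM21 gave transcript lengths for 99.1% of tested genes. Of the 210, 117 are followed through the alternatives below, and many of the rest are left out of the text.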

Additional observations from a re-analysis of the deposited data

Results flagged for a closer look

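The values of 1 gene, or of the mitochondrial share, in the 5 kidneys of 1 of the 2 groups made 1 set. Of 236 sets, 15 (6.36%) held a kidney whose gap to its nearest neighbour was large for the range of its group. Chance flags about 1 in 20 such sets, and no cause was tested. All values here are log2 CPM.

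In cisplatin 9, Krt20 was low at 2.31, while the fibroblast and matrix genes Pdgfra and Col6a1 were high at 8.515 and 7.852. In cisplatin 10, Cyp2e1 was low at 7.338, and the p38 pathway genes Mapk14, Mapk13 and Map2k3 were high at 7.086, 7.107 and 7.994. These 2 kidneys also held the highest mitochondrial shares.

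In replicate 1 at 30 mg/kg, Sdhd was high at 8.618, and Mapk11, Fos and Socs3 were low at 0.6343, -0.6372 and 2.5. In the other 30 mg/kg kidneys, Plk3 was high in replicate 6 at 6.417, Map3k3 high in replicate 7 at 4.425, Dusp1 low in replicate 5 at 3.803 and Me1 low in replicate 8 at 7.822.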

How the results depend on the processing

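Of the 117 genes followed through 19 alternatives, 91 were called, and none of these changed sign under any alternative. Apart from the replicate block, 53 of the 91 held their call in every alternative. The count of called genes was 4148 (2180 up, 1968 down, 2060 of more than 2-fold). With library totals as the only scaling it became 1413 (1220 up, 193 down). The mitochondrial share then enters every library size, and its part in this change was not tested. Without cisplatin 9 and 10 the count became 2222 (1115 up, 1107 down, 1219 of more than 2-fold), with fewer samples. Leaving out 1 kidney at a time gave 3155 to 4668 calls. DESeq2 gave 4870, limma voom 4882, DESeq2 size factors in edgeR 4125 and the fit of only these 2 groups 3285. The number of genes called between the doses was 0 to 2 when 1 kidney was left out, with the 2 in the fit without replicate 1 at 30 mg/kg, and 1 with DESeq2.

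The groups compared share 1 replicate number, 6, with a correlation of deviations of 0.0807. Of 15 same-number pairs over the 4 groups 3 had a correlation above 0.1 (range -0.309 to 0.234). With 1 shared number these values cannot decide whether the numbers pair the samples, and the main fit took them as unpaired. With the replicate block, 310 genes were called (152 up, 158 down, 307 of more than 2-fold). Of the 91 called genes followed here, 67 lost their call with the block.

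Genes that were not called changed sign as follows, and the cause was not tested. With library totals Lcn2 was at 0.094, Map3k5 at 0.21 and Jun at 0.058. With the replicate block Spp1 was at -0.32, Cdkn1a at -0.18, Mapk13 at 0.037, Jun at 0.047 and Slc47a1 at -0.33. Without cisplatin 9 and 10 Spp1 was at -0.13 and Jun at 0.26. Cdkn1a was at -0.017 with DESeq2 size factors in edgeR and at -0.018 with DESeq2. With 1 kidney left out at a time, Lcn2 ranged from -0.98 to 0.10 (highest without 30 mg/kg replicate 1), Map2k6 from -0.033 to 0.42 (lowest without cisplatin replicate 9) and Map3k5 from -0.43 to 0.022 (highest without cisplatin replicate 10). Without 30 mg/kg replicate 6 Spp1, Cdkn1a and Mapkapk2 were at their lowest, in ranges of -0.11 to 0.67, -0.45 to 0.37 and -0.0072 to 0.38. The panel genes Ppara, Pck1, Aqp2, Slc12a3, Nqo1 and Sox9 were not called (adjusted p from 0.596 to 0.982) and had no stable sign. They are not described further. Depth limits low genes most in cisplatin 9 and 10, where 3 counts are 0.306 and 0.375 CPM.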

Other observations

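Further gene lists are given with the shares of all genes, 14.7% higher and 13.2% lower, as their background. Of 26 genes of endoplasmic reticulum stress 6 rose while 1 fell (23.1% and 3.85%), with 1 rise left without cisplatin 9 and 10. Of 16 heat shock genes 4 rose and 1 fell (25% and 6.25%), and 3 rose without the pair. Of 35 cell cycle genes 3 rose and 4 fell (8.57% and 11.4%, below the background), 2 rose and 1 fell without the pair, with summed levels of 138 to 164 CPM at 30 mg/kg, 118 to 135 CPM in cisplatin and 156 to 228 CPM in control. Of 16 complement genes 3 rose while 5 fell (18.8% and 31.2%), which left 1 each way without the pair. Of 6 tested red blood cell genes 1 fell (16.7%, near the background) and none without the pair, with summed levels of 4.32 to 37.8 CPM at 30 mg/kg, 17.4 to 36.2 CPM in cisplatin and 174 to 701 CPM in control. Adipose markers summed to 45.7 to 344 CPM at 30 mg/kg, 62.5 to 106 CPM in cisplatin and 63.9 to 2629 CPM in control.

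Motifs of other factors were searched in the same promoter windows on both strands. The cyclic AMP response element TGACGTCA occurred in 2 of 20 immediate early genes and 3.33% of all windows, and the AP-1 motif TGANTCA in 1 of 20 and 6.61%. The 10-base motif bound by p53 dimers occurred in 11 of 26 p53 targets (42.3%) and 8.36% of all windows. These shares are descriptions and say nothing about binding.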
